A study of Mus musculus with 23 samples.

Results

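The clustered protocadherins were read out from RNA-seq of mouse embryonic stem cells (ESCs). Their members were all gene names in the deposited tables that begin with Pcdha, Pcdhb or Pcdhg, 59 of 23369 gene names, and they comprise 15 names of the alpha cluster, 22 of the beta cluster and 22 of the gamma cluster. The cells were a Kdm2b fl/fl line at passages p10-p20. By the paper's methods the floxed allele was made in MS12 ESCs, and the line was raised from a mating of mice that carried it. Both Kdm2b alleles carry loxP sites around the exon for most of the ZF-CxxC domain, through which the KDM2B protein of the PCGF1/PRC1 polycomb complex binds nonmethylated DNA, and the line carries the Gt(Rosa26)Sor-ERT2Cre transgene, a Cre recombinase that 4-hydroxy tamoxifen activates. Of the RNA samples, 3 were labelled untreated and 3 tamoxifen treated (72 hr), so that both groups share the floxed alleles and the Cre and differ in the drug. The cultures had been grown with LIF and serum on inactivated mouse embryonic fibroblasts, and were left to settle overnight without these feeders before use. The comparison asks how expression of the clusters differed after the ZF-CxxC exon was to be removed, and no cells without Cre were included that would separate the drug from the deletion.

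The direction of every comparison rests on how the samples were labelled. The deposited files carry names that read the other way for all 6 RNA samples, and under that reading each difference below keeps its size and its p and changes its sign. The labels give 800 nM as the dose, whereas the series text has 800 µM. Expression was given as FPKM, a fragment number corrected for transcript length and sequencing depth, and between 11571 and 11980 entries in a sample reached 1 FPKM. Read totals were not used here, but the steps between low values put the depth of the other 5 samples at 0.655 to 0.955 of that of untreated replicate 1. Kdm2b itself was at 26.95, 21.55 and 27.71 FPKM in untreated replicates 1, 2 and 3 and at 19.87, 21.91 and 25.04 FPKM in tamoxifen replicates 1, 2 and 3. These groups overlapped, and a value over the whole gene does not resolve the floxed exon, so Kdm2b did not check the labels. The 10 ESC marker genes summed to 2892 to 4069 FPKM in the untreated and to 3210 to 5614 FPKM in the tamoxifen samples, and none of the 10 was at 0 in all samples. The highest were Dppa5a, Pou5f1 and Tdgf1.

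Clustered protocadherins are cadherin-type adhesion molecules of the cell surface, best known in neurons. There, individual cells express different combinations of isoforms, and like combinations on contacting membranes serve self-recognition and avoidance between the branches of a single neuron. Each alpha and gamma isoform starts at its own promoter and its own large variable exon, which encodes the extracellular domain, the membrane span and part of the cytoplasmic tail, and is then spliced to short constant exons that all isoforms of the cluster share. The beta genes have no constant exons. Promoter choice depends on CTCF, cohesin and DNA methylation. The C-type genes Pcdhac1, Pcdhac2, Pcdhgc3, Pcdhgc4 and Pcdhgc5 lie at the downstream ends of the alpha and gamma clusters, and are known to be expressed more uniformly across neurons than the other isoforms.

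The 59 loci covered 911.6 kb of chromosome 18 (mm9, 37089939 to 38001526) in the order alpha, beta, gamma. Within the alpha and within the gamma cluster the loci overlapped, each starting at its own variable exon and running to a common downstream end. All alpha loci but Pcdha4-g ended within 3 bp of each other and all gamma loci within 9 bp. Pcdha4-g, a single entry of the gene models, ran from the alpha cluster to the end of the gamma cluster and so covered the whole beta cluster. The beta loci overlapped no member other than Pcdha4-g, and for 20 of 22 the GENCODE annotation of the same assembly (NCBIM37) held a transcript with 1 exon at the start of the locus.

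The same annotation shows how much of a gamma transcript can tell isoforms apart. The Pcdhgc3 transcript was 4687 bp long, with a variable exon of 2568 bp and constant exons of 59, 89 and 1971 bp. Constant sequence was therefore 45.2% of it, and 41.7% to 45.2% over the 9 gamma transcripts that matched a member. In the 7 alpha transcripts that matched, it was 15.6% to 54.4%. The low end came from transcripts with a last exon of 311 bp (as for Pcdha9), the high end from those with 2712 bp (as for Pcdha12). Transcripts were matched by their start only, and the deposited loci of these 2 genes share 1 end. The shorter transcripts therefore need not be the models that were quantified. A fragment within the constant exons fits every isoform of its cluster, and the sources used here do not state how the quantifier divided such fragments. The variable exons are related but less alike. Of the 51-base words (the read length) in the first 2400 bases of the loci, a median of 14.5% in 14 alpha members and 0.639% in 22 gamma members also occurred in another member, with highest shares of 23.6% in Pcdha7 and 18.7% in Pcdhgb2. The median over the whole beta loci was 4.35%, with the highest share, 11.6%, in Pcdhb12. The 5 C-type genes, Pcdhb1, Pcdhga1, Pcdhga7, Pcdhga11 and Pcdhga12 shared 0 such words.

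**Figure D1:**
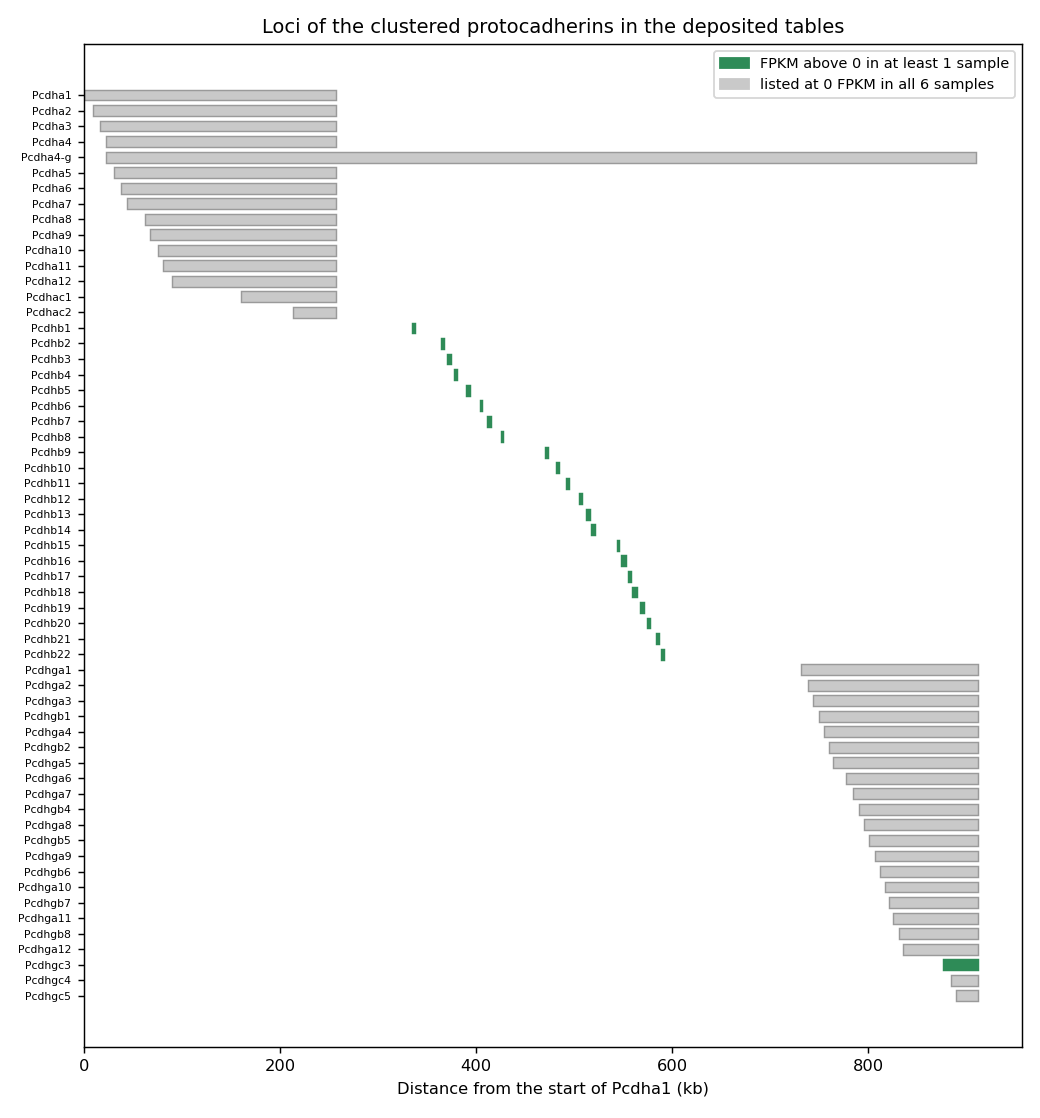
Each bar is the locus of 1 of the 59 members, drawn to scale in kb from the start of Pcdha1, in genomic order from top to bottom. Green marks members with an FPKM above 0 in at least 1 of 6 samples (the 22 beta members and Pcdhgc3) and grey the 36 members listed at 0 in all 6, whose loci share their downstream ends within the alpha and the gamma cluster except for Pcdha4-g.

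Of the 59 members, 36 were listed at 0 FPKM in all 6 samples. They were all 15 alpha members, among them Pcdha1 to Pcdha12, Pcdha4-g and the C-type genes Pcdhac1 and Pcdhac2, and 21 of 22 gamma members, which left Pcdhgc3 as the gamma member with a value. Pcdhgc4 and Pcdhgc5, whose loci start just downstream of Pcdhgc3, were among the 21, as were all Pcdhga and Pcdhgb genes. Every one of these values carried the status of a completed estimate. The upper bounds that the quantifier gave with these zeros were 0.01414 to 0.04249 FPKM for alpha and 0.01513 to 0.0263 FPKM for gamma members. The bounds were highest in tamoxifen replicate 3, the shallowest sample, and lowest in untreated replicate 1, the deepest. No fold change can be given between groups that are both listed at 0.

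The zeros are reported as listed. In the gamma cluster 1 entry held all of the FPKM, and in the alpha cluster no entry, Pcdha4-g included, held any. Fragments of the constant exons fit every isoform of their cluster, and whether this bears on the zeros was not tested. The beta members, which share no exons, had 107 of 132 values above 0. Whether other gamma isoforms contributed to the fragments listed under Pcdhgc3 was not tested, and its values are read below as those of the Pcdhgc3 entry.

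The Pcdhgc3 entry was well expressed in both groups and lower in the samples labelled tamoxifen. Pcdhgc3 (chromosome 18, 37966064 to 38001526, plus strand) encodes a C-type gamma protocadherin that is also found outside neurons. It was at 25.69, 40.01 and 30.01 FPKM in untreated replicates 1, 2 and 3 and at 14.46, 23.88 and 20.82 FPKM in tamoxifen replicates 1, 2 and 3. All 3 tamoxifen samples lay under all 3 untreated samples, with untreated replicate 1 only slightly above tamoxifen replicate 2. The bounds deposited with these 2 values overlapped (24.53 to 26.98 FPKM and 22.79 to 25.15 FPKM). Among all tested genes, 5.4% had the same order of groups. The means were 31.91 ± 7.344 and 19.72 ± 4.809 FPKM (SD, n = 3 each). Its mean over all samples, 25.81 FPKM, lay above that of 75.2% of the tested genes and was 16.8 times the summed FPKM of the whole beta cluster.

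Groups were compared with limma on log2(FPKM + 0.1) over the 12997 gene names that reached 0.5 FPKM in 3 or more samples, and a gene was called at an adjusted p under 0.05. Pcdhgc3 was the 1 member that passed this minimum. Its log2 fold change was −0.70 (SE 0.268, 95% interval −1.31 to −0.09), a level in tamoxifen of 0.617 times that in untreated samples, and the adjusted p was 0.863 (raw p 0.0296). It was therefore not called without a replicate block, in a comparison that called 0.0308% of the tested genes. The fold change stood low among all genes, of which 4.82% had a lower one, and the median of all was −0.02.

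Replicates with the same number deviated together, and within each number Pcdhgc3 differed by a similar factor. The tamoxifen sample held 0.563 of the untreated level in replicate 1, 0.597 in replicate 2 and 0.694 in replicate 3. With a block for replicate number the same log2 fold change of −0.70 had an SE of 0.102 (95% interval −0.93 to −0.46), and Pcdhgc3 fell with a limma adjusted p of 0.0103. The block called 10.4% of all tested genes, 6.06% as lower, so a call of this kind was common. Without replicate number 2 the log2 fold change stayed at −0.68 and the call was lost (adjusted p 0.0977), in a fit that called 36 genes higher and 43 lower over all. By contrast the adjusted p was 0.0033 without number 1 and 0.0134 without number 3.

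**Figure D2:**
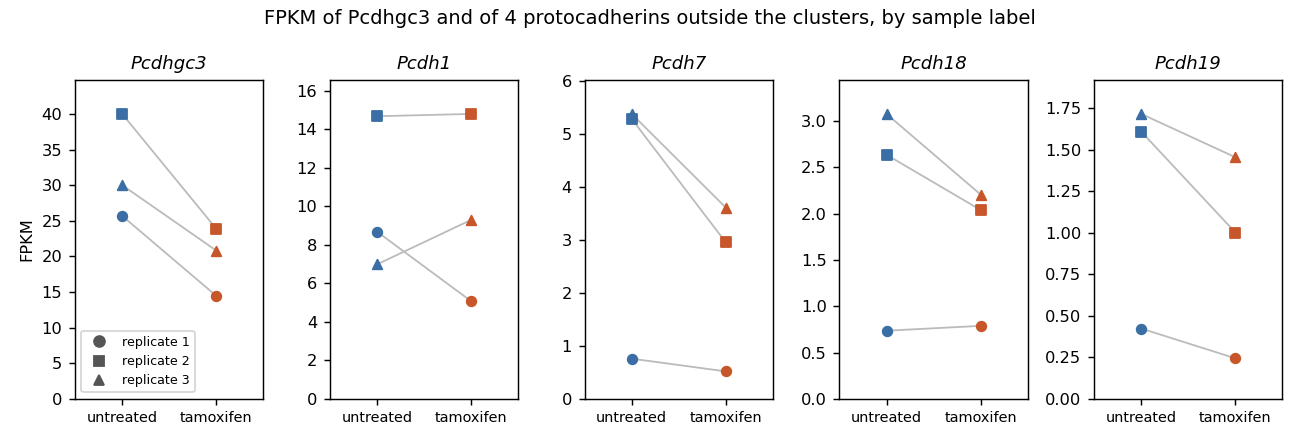
FPKM (linear axes from 0, a scale for each gene) of Pcdhgc3 and of the 4 tested protocadherins outside the clusters in the samples labelled untreated (blue) and tamoxifen (orange), with a grey line joining samples of the same replicate number. Pcdhgc3 lay at 25.69 to 40.01 FPKM in untreated and at 14.46 to 23.88 FPKM in tamoxifen samples, while the groups of the other 4 genes overlapped.

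Protocadherins outside the clusters, which are single genes with promoters of their own, gave no call without the block. The list held 14 names, of which Pcdh21 and Pcdh24 had no entry of that name, and 4 of the other 12 passed the minimum. All 4 had log2 fold changes below 0, with a median of −0.37, and 52.7% of all tested genes had the lower mean in tamoxifen. Pcdh7, an adhesion molecule of the delta type, was at 0.7574, 5.28 and 5.375 FPKM in untreated replicates 1, 2 and 3 and at 0.5173, 2.95 and 3.607 FPKM in tamoxifen replicates 1, 2 and 3. Its groups overlapped because replicate 1 was low in both. It fell with the block (log2 fold change −0.62, SE 0.153, limma adjusted p = 0.0445), a call that was lost without number 2 (log2 fold change −0.52, adjusted p = 0.303) and without number 3 (−0.65, adjusted p = 0.131). Pcdh1, the highest of the list, was at 8.687, 14.68 and 6.981 FPKM in untreated and at 5.075, 14.8 and 9.294 FPKM in tamoxifen replicates. It was lower in 1 of 3 replicate numbers (block adjusted p = 0.736). Pcdh18 and Pcdh19 gave block adjusted p of 0.398 and 0.168 at log2 fold changes of −0.24 and −0.49. Of the genes that missed the minimum, Pcdh8 had groups without overlap, at 0.4078, 1.542 and 0.5987 FPKM in untreated and 0.03982, 0.2766 and 0.2406 FPKM in tamoxifen replicates. Of the 18843 gene names above 0 in any sample, 1013 had all tamoxifen values under all untreated ones. Of the same names 23.8% were lower in tamoxifen within all 3 numbers, and 14.3% of those with a mean under 0.5 FPKM. Pcdh9, Pcdh17 and Pcdh20 were lower in tamoxifen within all 3 numbers, Pcdh10, Pcdh12 and Pcdh15 within 2 and Pcdh11x within 1. Pcdhgc3 was thus above each of these genes in every sample, by FPKM, which is scaled per length.

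The start of Pcdhgc3 also differed in base composition from those of most members. KDM2B binds nonmethylated CpG-rich DNA, and the 1 kb around each locus start was therefore scored from the NCBIM37 sequence (500 bp on each side). A start was called CpG-rich if GC reached 55% and the CpG ratio, observed over expected, reached 0.6. Only 3 of 59 members met both, and all 3 were C-type genes. Pcdhgc3 had a GC content of 58.4%, a ratio of 0.788 and 67 CpGs, Pcdhac2 had 67.3% and 0.796, and Pcdhac1 had 57.4% and 0.607, just inside the ratio. Over all 20940 gene names with 1 entry and a strand, 41.4% of starts were CpG-rich. The windows were set on the loci as deposited. Whether a locus start was also the transcription start, for members or for other genes, was not tested.

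The medians of the 3 clusters differed on this scale, with gamma overlapping both other clusters. The alpha starts had a median ratio of 0.722 at a median GC content of 46.5%, so that their CpGs were dense for sequence of moderate GC content. The gamma starts were more varied, with ratios from 0.247 in Pcdhgc5 to 0.896 in Pcdhga11. The beta starts had the lowest ratios, 0.158 to 0.556 with a median of 0.39, against a median of 0.582 over all genes. Pcdhac1 and Pcdhac2, with CpG-rich starts, were listed at 0, and the beta genes, with CpG-poor ones, had values above 0. Occupancy of KDM2B, RING1B and SUZ12 at these starts was not analysed here.

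**Figure D3:**
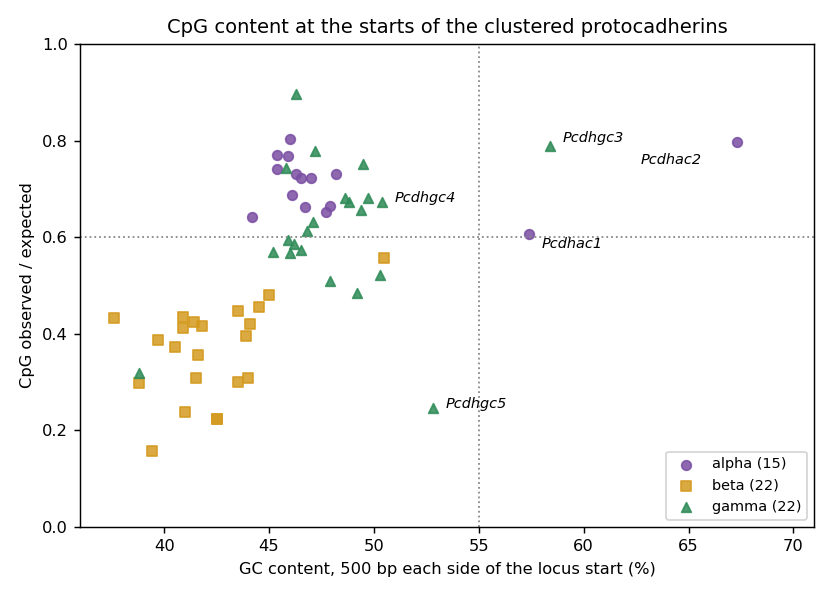
GC content in percent (x axis) and CpG observed over expected ratio (y axis) in the 1 kb around the start of each of the 15 alpha, 22 beta and 22 gamma loci, with dotted lines at 55% and 0.6. Pcdhgc3, Pcdhac1 and Pcdhac2 lie in the upper right, and all 22 beta members lie below a ratio of 0.6.

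The beta members were detected at very low levels, and their sum was lower in the tamoxifen samples of every replicate number. All 22 had a value above 0 in at least 1 sample and 10 had one in all 6. From 13 to 21 members were above 0 in a sample. The 25 zeros among their 132 values came with upper bounds of 0 as well, so that no limit can be read from them. Only 1 value reached 0.5 FPKM, so that no beta member passed the minimum for testing. Pcdhb22, the last gene of the cluster, came closest to the minimum and Pcdhgc3 was the member inside it, at 0.2634 and 25.81 FPKM on average over the 6 samples.

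The summed FPKM of the beta cluster was 0.7842, 2.527 and 2.519 in untreated replicates 1, 2 and 3 and 0.3239, 1.532 and 1.514 in tamoxifen replicates 1, 2 and 3. The groups overlapped, because replicate 1 was low in both. The means were 1.944 ± 1.004 and 1.123 ± 0.6923 FPKM (SD, n = 3 each), a ratio of 0.578. Within the numbers the ratio of tamoxifen to untreated was 0.413, 0.606 and 0.601. These are descriptions without a test. The log2 ratio of the means, −0.79, ranged from −1.17 to −0.35 when a sample was left out, the weakest value being that without tamoxifen replicate 1 and the strongest that without untreated replicate 1.

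**Figure D4:**
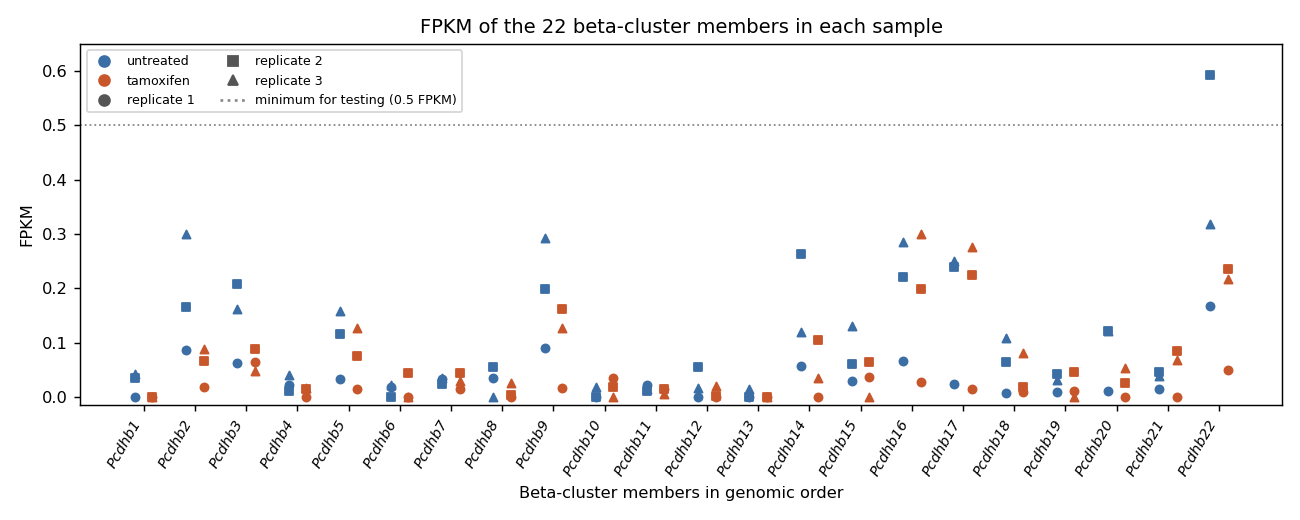
FPKM of the 22 beta members in genomic order, with untreated samples in blue, tamoxifen samples in orange and a marker shape for each replicate number. Only Pcdhb22 in untreated replicate 2 (0.5936 FPKM) lies above the dotted minimum of 0.5 FPKM, and replicate 1 (circles) is low in both groups for Pcdhb16, Pcdhb17 and Pcdhb22.

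Members of the beta cluster varied in level and in how the groups compared. Pcdhb22 was highest, at 0.1674, 0.5936 and 0.3192 FPKM in untreated and 0.04877, 0.2348 and 0.2164 FPKM in tamoxifen replicates 1, 2 and 3. It was lower in tamoxifen within all 3 numbers. Pcdhb2, near the upstream end, was at 0.08604, 0.1652 and 0.2994 FPKM in untreated and 0.0181, 0.06537 and 0.08767 FPKM in tamoxifen replicates. Its highest tamoxifen value only just exceeded its lowest untreated value. Pcdhb9 was at 0.09053, 0.1987 and 0.2924 FPKM against 0.01633, 0.1621 and 0.1274 FPKM. Pcdhb14 was at 0.05701, 0.2627 and 0.119 FPKM against 0, 0.104 and 0.03481 FPKM. Pcdhb5 was at 0.03323, 0.116 and 0.1589 FPKM against 0.01399, 0.07574 and 0.1274 FPKM. These 3 were lower within each number as well, with overlapping groups. Some beta values came with a lower bound of 0, as for Pcdhb5 in untreated replicate 1 (0 to 0.06269 FPKM).

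Other members of similar level were not lower in tamoxifen within all numbers. Pcdhb16 was at 0.06554, 0.2211 and 0.2845 FPKM in untreated and 0.02759, 0.1991 and 0.2995 FPKM in tamoxifen replicates. Its neighbour Pcdhb17 was at 0.02405, 0.2393 and 0.251 FPKM against 0.01518, 0.2239 and 0.2754 FPKM. In both genes the groups nearly coincided and the spread followed the replicate number. Pcdhb3 was at 0.06176, 0.2084 and 0.161 FPKM against 0.06498, 0.08796 and 0.04711 FPKM. At the other extreme, Pcdhb13 was above 0 in untreated replicate 3 alone (0.01378 FPKM), and Pcdhb1, the most upstream, had values in untreated replicates 2 and 3 alone (0.03429 and 0.04273 FPKM).

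Over the cluster, 18 of 22 members had the lower mean in tamoxifen, and 53.5% of the 5826 comparably low gene names did. Within the replicate numbers, 6 of 22 members were lower in tamoxifen in all 3, namely Pcdhb2, Pcdhb5, Pcdhb9, Pcdhb14, Pcdhb20 and Pcdhb22. The same held for 14.3% of the low gene names and for 28.2% of the tested genes. The groups of 0 members were free of overlap, against 10.8% of the low gene names in either direction. In a fit over all 18843 gene names with a value above 0, the beta members had a median log2 fold change of −0.20, from −0.81 in Pcdhb2 to 0.15 in Pcdhb10, and the median of the low gene names was −0.03. The pseudocount of 0.1 FPKM is as large as most of these values and shrinks such fold changes.

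No beta member was called in that fit. Without the block the lowest limma adjusted p was 0.828. With the block, which called 2.17% of the 18843 gene names, the lowest adjusted p was 0.0886 (Pcdhb14, log2 fold change −0.73). It was followed by 0.0899 for Pcdhb2 (log2 fold change −0.81). At a level of about 0.1 FPKM a difference between the groups was not resolved for single beta genes.

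Low values in replicate 1 were shared by some other gene groups and not by all. Replicate 1 was the lowest of its group in both groups for 11 of 22 beta members, against 15.7% of the low gene names and 25.2% of the tested genes. The beta sum of replicate 1 was 0.311 of the mean of replicates 2 and 3 in untreated and 0.213 in tamoxifen samples. Markers of fibroblasts, the feeder cell type, moved the same way. Their sum over 11 genes was 89.35, 226 and 215.6 FPKM in untreated and 86.33, 186 and 196.2 FPKM in tamoxifen replicates 1, 2 and 3, so that replicate 1 held 0.405 and 0.452 of the mean of the other two. Col1a1, a fibrillar collagen chain, was at 15.55, 40.33 and 31.16 FPKM in untreated and 19.34, 38.15 and 29.72 FPKM in tamoxifen replicates. S100a4, a calcium-binding protein, was the highest of the list at 93.27 FPKM and Col1a2, the other chain of the same collagen, was at 21.85 FPKM on average.

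The fibroblast markers gave no call between the groups. Of the 11, 9 were tested, 0 were called with or without the block, their median log2 fold change was 0.03, and 3 of 11 had the lower mean in tamoxifen. None of the 11 was at 0 in all samples, although Lum and Fap, markers of matrix-producing fibroblasts, had means of 0.07944 and 0.02191 FPKM. For Pcdhgc3, replicate 1 held 0.734 and 0.647 of the mean of the other two. Fewer cells of a type and less RNA per cell cannot be told apart in bulk samples, and the part of feeder cells in the beta and Pcdhgc3 values was not tested.

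**Figure D5:**
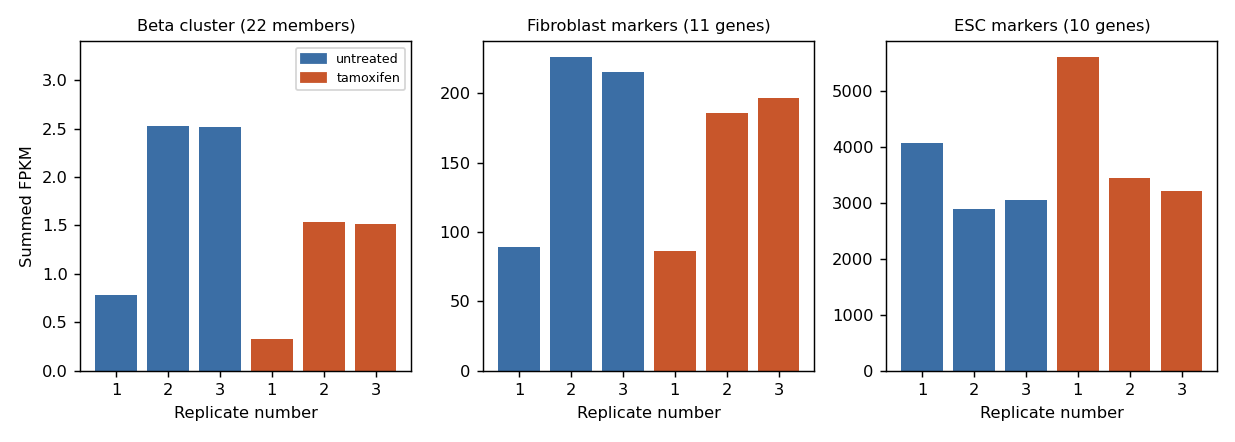
Summed FPKM in each sample (bars from 0) of the 22 beta members, of 11 fibroblast markers and of 10 ESC markers, with untreated samples in blue and tamoxifen samples in orange. Replicate 1 is the lowest of its group for the beta sum and the fibroblast sum and the highest for the ESC sum. The ESC sum is weighted to Dppa5a (mean 2011 FPKM) and does not hold for every marker. Tdgf1 was at 308, 460.3 and 327.5 FPKM in tamoxifen replicates 1, 2 and 3. The beta sum in tamoxifen is 0.413, 0.606 and 0.601 of that in untreated within numbers 1, 2 and 3.

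Markers of neural cells, the cell type in which the clusters are best known, were also measured. They summed to 72.4 to 95.73 FPKM in untreated and to 70.1 to 81.85 FPKM in tamoxifen samples, and none of the 10 was at 0 in all samples. Of the 5 tested, 0 were called without the block and 3 fell with it, a share to be read beside the 6.06% of all genes. These were Pax6 (log2 fold change −1.73, adjusted p = 0.0103) and Sox1 (−0.97, adjusted p = 0.0153), transcription factors of neural progenitors, and Nes (−0.55, adjusted p = 0.0275), an intermediate filament of the same cells. As for Pcdhgc3, each of these limma calls was lost without replicate number 2 (adjusted p = 0.0861, 0.137 and 0.156), where the log2 fold changes were −1.81, −0.91 and −0.58. Tubb3, a neuronal tubulin and the highest of the list at 56.59 FPKM, was not called (log2 fold change 0.15, block adjusted p = 0.373) and was higher in tamoxifen within all 3 numbers. Their part in the Pcdhgc3 difference was not tested.

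Genes around and between the clusters were mostly expressed, unlike the alpha and gamma names. Of 33 other gene names between the outermost members or within 500 kb of them, 26 were tested. Of these, 16 had a log2 fold change above 0, with a median of 0.06. Over all tested genes the median was −0.02, and 52.7% had the lower mean in tamoxifen. The 3 highest neighbours were Pfdn1, Ndufa2 and Hars, at means of 88.57, 82.15 and 54.54 FPKM, and 1700086O06Rik was listed at 0 in all samples. Taf7, a TFIID subunit gene between the beta and gamma clusters, was at 31.71, 22.35 and 37.29 FPKM in untreated and 37.76, 26.1 and 38.58 FPKM in tamoxifen replicates. Without the block 0 neighbours were called. With it, 1 fell, in a fit that called 6.06% of all tested genes lower. This was Hbegf, which encodes a ligand of the EGF receptor. Hbegf was at 12.39, 26.77 and 20.64 FPKM in untreated and 9.921, 14.79 and 10.16 FPKM in tamoxifen replicates (log2 fold change −0.73, limma adjusted p = 0.0232). Its call was lost without number 2 (log2 fold change −0.67, adjusted p = 0.174) and without number 3 (−0.59, adjusted p = 0.0751).

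Genes for the proteins that act on cluster promoters were at high levels in both groups. Of 11 CTCF and cohesin genes, all were tested and 0 were called with or without the block, with a median log2 fold change of −0.07. Their highest means were 91.74 FPKM for the cohesin subunit Rad21, 45.73 FPKM for the cohesin subunit Smc3 and 45.43 FPKM for the cohesin release factor Wapal. Ctcf was at 38.19, 34.13 and 50.08 FPKM in untreated and 36.21, 39.2 and 51.04 FPKM in tamoxifen replicates (log2 fold change 0.05, block adjusted p = 0.759).

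Of 14 silencing factors, all tested, 0 were called without the block. The block, which called 563 of the 12997 tested genes higher, gave 1 that rose. This was Trim28, the corepressor of KRAB zinc finger proteins, at 427.5, 301.1 and 423.6 FPKM in untreated and 522.4, 477.2 and 540.1 FPKM in tamoxifen replicates (log2 fold change 0.43, limma adjusted p = 0.0477). Without number 2 its log2 fold change was 0.32 (adjusted p = 0.248) and without number 3 it was 0.48 (adjusted p = 0.0811). Dnmt3a just missed the threshold with the block (log2 fold change −0.56, limma adjusted p = 0.0505) and was lower in tamoxifen within all 3 numbers. Of the 14, 6 had a log2 fold change below 0. Trim28, Dnmt3l, a cofactor of DNA methylation, and Uhrf1, which maintains it, were the highest of the list, and Dnmt3l and Uhrf1 had log2 fold changes of 0.07 and 0.02. Of 18 intracellular partners and proteases of the protocadherins, 0 were called in either fit, with a median log2 fold change of −0.16. The highest were Nckap1 (44.77 FPKM) and Wasf2 (28.08 FPKM), of the WAVE complex that binds protocadherin tails, and Ncstn (33.86 FPKM), a subunit of the gamma-secretase that cleaves them.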

How the data were processed

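PolyA+ RNA was sequenced by the authors as directional paired-end 51 bp libraries, aligned to mm9 with Tophat2 (v0.5, as the study gives it) and, per the methods, quantified on refGene models with cuffdiff (v2.1.1), in biological triplicates. The authors deposited 1 FPKM value per entry and sample, with bounds and a status, which were the values used here. The tables have the layout of Cufflinks tracking files, whereas the methods name RPKM from cuffdiff, and which program wrote them is not given in the sources used here.

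Entries of the same name were summed, and 6 names with a failed estimate were left out. Groups, taken from the labels, entered limma 3.58.1 (R 4.3.3, eBayes with trend) as log2(FPKM + 0.1), after a minimum of 0.5 FPKM in at least 3 of 6 samples, with Benjamini-Hochberg adjustment over all 12997 tested names at 0.05. The script was tested on simulated data. Same-numbered samples deviated together (r = 0.544, 0.605 and 0.506 over genes, against −0.379 to −0.105 for different numbers), so a fit blocked on replicate number was set beside each call it changed. Fold changes on this scale understate those of low genes. FPKM gives no counts. The bounds deposited with each value did not enter the fits and were read only where stated.

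Named were the members highest in each cluster, the C-type genes, members called in either fit, at 0 throughout or nearest to the minimum, Kdm2b, and of each other list the called genes and the 3 highest. Pcdhb13, Pcdhb1, Pcdhb10, Pcdhb20, Taf7, Pcdh18, Pcdh19, Dnmt3a, Lum and Fap were added after their values were seen. So were the genes named for shares of words or base composition and the protocadherins outside the clusters that missed the minimum. Members and lists were chosen with earlier results of these data known. Shared words, CpG content (Python 3.11.15) and exons came from NCBIM37 and GENCODE. The ChIP samples were not used here.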

Additional observations from a re-analysis of the deposited data

How the results depend on the processing

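Pcdhgc3 had a log2 fold change below 0 in all settings run, from −0.85 to −0.49 in the 16 alternatives without a replicate block (adjusted p 0.757 to 1.0) and from −0.78 to −0.63 in the 6 with it (adjusted p 0.0033 to 0.0977). The number of members called lower was 0 without the block and 1 with the replicate block, with block and quantile normalization, with block and no filter, and with the block without number 1 or number 3. Over all genes 3 were higher and 1 lower in the comparison without a block. Both counts were 0 with at least 1 FPKM in all 6 samples, and the lower count was 0 with a pseudocount of 1. The replicate block gave 563 higher and 787 lower genes, 558 and 586 with quantile normalization, and 167 and 241 without a filter. With pairs left out, the block gave 744 and 1011 without number 1, 36 and 43 without number 2 and 359 and 478 without number 3. Leaving out 1 sample gave 2 to 5 higher and 0 to 7 lower. In the lists of other protocadherins, regulators, partners and neighbours, the 0 calls became 1 higher and 2 lower with the block, 1 lower with quantile normalization as well, 3 higher and 2 lower without number 1, and 1 lower without number 3. The beta and gamma sums stayed lower in tamoxifen in every alternative. Block fits without a number or a filter were chosen after the data were seen. The median of all tested genes moved by 0.10 under scaling to TPM and by −0.09 when loci under 300 bp were left out first.

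Of the beta members 0 of 22 passed the minimum of 0.5 FPKM, and their level, not a test, is what these data give. How constant-exon fragments were divided among alpha and gamma entries was not tested. With 3 samples a group, calls rested on the pairing by number, which the labels give without saying what a number shares.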
